A study of Drosophila melanogaster with 12 samples.

Results

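The mitochondrial ribosomal protein genes (*mRp* genes) are the nuclear genes for the proteins of the ribosome inside mitochondria. They were taken by name from the deposited gene table, as every gene whose symbol begins with mRpL or mRpS and a number, which gave 73 of the 21076 genes listed. Of these, 47 encode proteins of the large subunit (*mRpL*) and 26 proteins of the small subunit (*mRpS*). The rule reads only the names, although the group was picked for description with earlier results of these data known.

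Mitochondria keep a small genome that encodes a few subunits of the respiratory chain, the ribosomal RNAs and the transfer RNAs. The messages of that genome are translated by a ribosome of their own, whose proteins are all made from nuclear genes in *Drosophila* and imported from the cytosol. Some of these proteins descend from those of the bacterial ribosome and keep their numbers, and others are found only in mitochondria. The respiratory chain draws on this ribosome throughout the body, and flight muscle and sperm are both rich in mitochondria.

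RNA came from whole bodies of adult male *D. melanogaster*, about 50 males per preparation, in 2 genotypes. The mutant group was homozygous for *Mettl16* 1-9, a CRISPR frameshift allele of the m6A methyltransferase gene *Mettl16* from a mutant line that is viable, sterile and flightless. The control group was *w1118*, and the labels do not say that the lines were made isogenic, so other differences between the lines cannot be told apart from the *Mettl16* allele. Each genotype had 3 input libraries of fragmented poly(A) RNA and 3 libraries of the fragments captured with an antibody against N6-methyladenosine (m6A, a methyl mark on RNA), termed IP. Expression was read from the 6 input libraries as FPKM, fragments per kilobase of transcript scaled to the mapped fragments of the library, which the authors computed with StringTie. The ages of the flies are not given in the sources used here.

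*Mettl16* itself had 0.430, 0.285 and 0.232 FPKM in the mutant libraries, against 0.971, 0.824 and 1.19 FPKM in *w1118* (log2 change -0.60, limma adjusted p = 0.00315), so the libraries matched their labels. The input libraries held 5.32 to 6.48 aligned gigabases by the ratio of coverage to FPKM, and libraries of 1 genotype correlated at 0.991 to 0.994 on the log2 scale, against 0.946 to 0.955 between genotypes. Marker lists of several tissues were read in whole males, with genes counted by the limma test described below. For comparison, that test called 26.7% of all 13866 genes tested as lower in mutants and 22.9% as higher. The share called higher was 25.0% for flight muscle markers and 16.7% for neuron markers, near or below this background. Of 25 spermatid markers 21 were lower in mutants and 2 higher, with a summed level of 3840 to 4313 FPKM in mutants and 5397 to 6003 FPKM in *w1118*. Accessory gland markers (13 of 14 lower, 4187 to 5220 FPKM against 7115 to 7679 FPKM) and midgut markers (10 of 14 lower, 1649 to 1935 FPKM against 2621 to 3357 FPKM) were also below *w1118*, while fat body markers were higher in sum (735 to 895 FPKM in mutants, 452 to 496 FPKM in *w1118*, with 4 of 9 higher and 1 lower). Flight muscle markers (4 of 16 higher, 1 lower) summed to 13223 to 14243 FPKM in mutants and 11148 to 13061 FPKM in *w1118*, and neuron markers (2 of 12 higher) to 207 to 216 FPKM in mutants and 180 to 221 FPKM in *w1118*. The 3 male markers matched were not past the threshold, at 79.8 to 88.1 FPKM in mutants and 78.3 to 87.2 FPKM in *w1118*, and of 15 egg and eggshell markers, 1 of which was tested, *Cp16* and *Vm32E* were listed at 0 in every library. In whole bodies, fewer cells of a type and less RNA per cell cannot be told apart, and the part of these tissues in the results on the *mRp* genes was not tested.

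Every *mRp* gene was expressed. All 73 passed the filter of a mean of at least 0.5 FPKM, and their mean levels ran from 5.28 to 48.8 FPKM with a median of 15.9 FPKM, a range of 9.25-fold. The SD over replicates had a median of 5.74% of the mean in mutants and 5.74% in *w1118*, and the lowest coverage of a member in any library was 38.6 reads per base. FPKM is scaled to transcript length, so levels can be set side by side, but for a gene with several isoforms the deposited gene value can lie below the sum of its isoforms. This sum was 1.89 times the gene value for *mRpL21* and 1.54 times for *mRpL27*, so the order of levels given here is that of the gene value. By summed isoforms *mRpL27* (50.6 FPKM) ranked 3 and *mRpL24* (39.4 FPKM) ranked 6, and *mRpL11* (7.77 FPKM) was lowest, with *mRpL21* at 10.004 FPKM.

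The highest gene values belonged to *mRpL28*, *mRpS7*, *mRpS5* and *mRpL24*. *mRpL28*, the counterpart of bacterial L28, had 49.3, 50.1 and 50.5 FPKM in mutants, against 39.6, 54.7 and 48.8 FPKM in *w1118*. The *w1118* values enclosed those of the mutants, and the log2 change of 0.08 (SE 0.11) did not pass the test (limma adjusted p = 0.574) and changed sign to -0.046 without *w1118* replicate 1. *mRpS7*, counterpart of the bacterial protein that organizes the head of the small subunit, had 45.5, 44.7 and 50.1 FPKM in mutants, against 44.5, 46.6 and 43.4 FPKM in *w1118*, and its groups overlapped (log2 change 0.06, SE 0.06). The lowest gene values belonged to *mRpL21*, *mRpL11*, *mRpL48* and *mRpL38*. *mRpL11*, counterpart of the bacterial protein at the base of the stalk that translation factors contact, had 8.35, 9.11 and 7.26 FPKM in mutants, against 7.51, 7.13 and 7.26 FPKM in *w1118*. *mRpL38*, a mitochondria-specific protein, had 9.69, 10.1 and 9.70 FPKM in mutants, against 7.70, 10.4 and 9.16 FPKM in *w1118*. Both pairs of groups overlapped. *mRpL11* missed the threshold (limma adjusted p = 0.166) and passed it in 1 alternative, without mutant replicate 3 (0.0396, against 0.0602 to 0.464 in the others).

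Nearly equal numbers of *mRp* genes were higher and lower in *Mettl16* mutants. By limma on log2(FPKM + 1), with p-values adjusted over all 13866 genes tested and a threshold of 0.05, 10 of 73 rose and 9 fell, 26.03% in all. Over all genes tested, 49.6% passed the same test (22.9% higher and 26.7% lower), and among the 7032 genes whose mean FPKM lay in the range of the *mRp* genes 54.4% passed. In a separate fit of genes with at least 5 FPKM, 12 *mRp* genes rose and 9 fell, against 57.2% of all genes in it. The share of *mRp* genes past the threshold was therefore below the background. Their changes were small: the median log2 change was 0.03 over the 73 genes and 0.01 over all genes tested, and the median size of the change was 0.10 against 0.24. Only 4 of 73 moved by more than 0.5 on the log2 scale in either direction (5.48%), against 23.8% of all genes tested. The standard errors had a median of 0.07 for the *mRp* genes and 0.07 for the genes in the same range of levels. The 3 mutant and 3 *w1118* values did not overlap for 27 of 73 *mRp* genes (37.0%), against 60.3% of all genes tested.

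**Figure D1:**
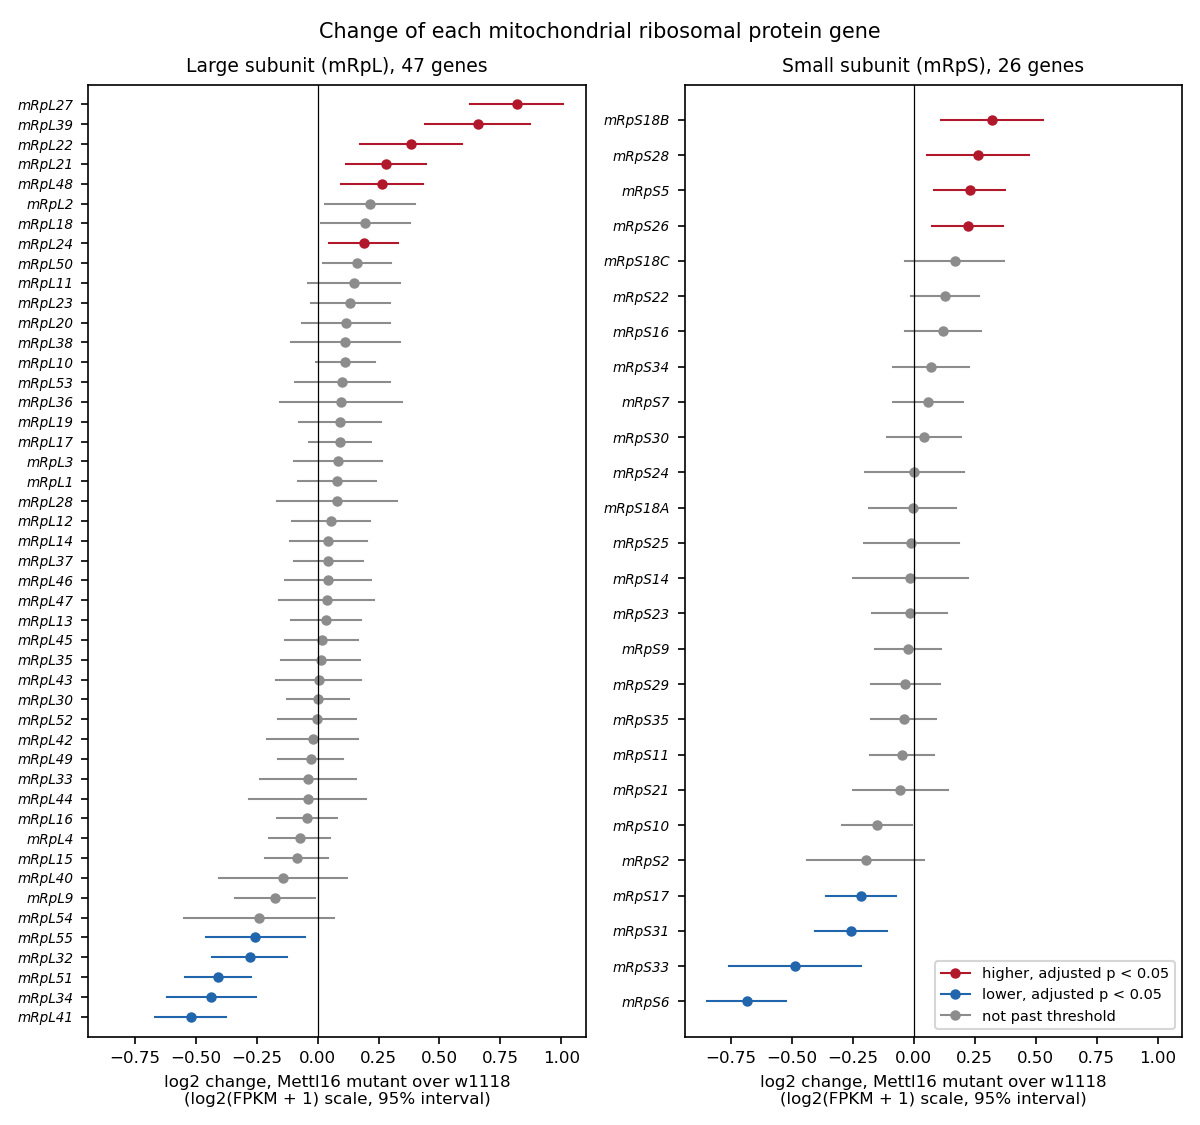
Log2 change in *Mettl16* mutants over *w1118* for each of the 73 *mRp* genes, on the log2(FPKM + 1) scale, large subunit on the left and small subunit on the right; points are limma estimates from 3 libraries per genotype and lines their 95% intervals. Most points lie close to 0, with *mRpL27* (0.82) and *mRpL39* (0.66) at the upper end and *mRpS6* (-0.69) and *mRpL41* (-0.52) at the lower end.

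Before adjustment, 13 higher and 11 lower of the 73 had a limma p under 0.05. Over all genes tested, 49.6% passed even after adjustment. The 54 *mRp* genes other than the 19 called did not pass the adjusted test. The 95% interval of the log2 change stayed within 0.5 of 0 for 53 of them and within 0.32 for 43, and the widest bounds were -0.55 and 0.40. Of the 73 estimates 41 lay above 0 and 32 below. *mRpL2* (log2 change 0.21, limma adjusted p = 0.0558) and *mRpL50* (0.16, adjusted p = 0.0585) lay just outside the threshold, and *mRpS28* (0.26, adjusted p = 0.0430) and *mRpL55* (-0.25, adjusted p = 0.0421) just inside it. The split of calls depended on single libraries and on scaling. Without mutant replicate 2, 4 genes rose and 10 fell, and without *w1118* replicate 3, 5 rose and 8 fell. With libraries scaled by their summed FPKM without the 10 highest genes, which moved the median of all genes to 0.07 and that of the *mRp* genes to 0.10, 19 rose and 7 fell. Among the 19 genes called, 11 passed in every alternative that included them: *mRpL27*, *mRpL39*, *mRpL22*, *mRpL21*, *mRpS6*, *mRpL41*, *mRpS33*, *mRpL34*, *mRpL51*, *mRpL32* and *mRpS31*.

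Of the 47 large-subunit genes 6 rose and 5 fell (23.4%, against 49.6% of all genes tested). The largest rise was that of *mRpL27* (2L, 4458595 to 4459638), the counterpart of bacterial L27, which reaches into the peptidyl transferase centre. It had 44.1, 41.1 and 41.1 FPKM in mutants, against 21.7, 22.3 and 26.6 FPKM in *w1118*. The lowest mutant library lay far above the highest *w1118* library, a 1.79-fold difference in mean (log2 change 0.82, SE 0.08, limma adjusted p = 0.000153). *mRpL39* (3L, 14997981 to 14999666), a mitochondria-specific protein, had 14.6, 15.0 and 12.7 FPKM in mutants, against 9.67, 7.92 and 8.20 FPKM in *w1118*. Its groups were also well apart, 1.64-fold in mean (log2 change 0.66, SE 0.09, limma adjusted p = 0.000744). The gene shares 3 bases at its end with *Zip71B*, a zinc transporter gene on the opposite strand, which rose as well (log2 change 0.48, adjusted p = 0.000646).

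Smaller rises were seen for the other large-subunit genes. *mRpL22*, counterpart of the bacterial L22 that lines the exit tunnel, had 21.5, 21.3 and 23.0 FPKM in mutants, against 17.7, 14.3 and 18.01 FPKM in *w1118* (log2 change 0.38, limma adjusted p = 0.00879). *mRpL21*, named after bacterial L21, had 5.66, 5.86 and 6.13 FPKM in mutants, against 4.89, 4.27 and 4.87 FPKM in *w1118* (log2 change 0.28, adjusted p = 0.0125). In both genes every mutant library lay above every *w1118* library. *mRpL48*, a mitochondria-specific protein, had 9.32, 10.4 and 8.98 FPKM in mutants, against 8.28, 7.60 and 7.48 FPKM in *w1118* (log2 change 0.26, adjusted p = 0.0172, past the threshold in 10 of 13 alternatives). *mRpL24*, counterpart of the bacterial protein beside the tunnel exit, had 39.1, 42.5 and 44.5 FPKM in mutants, against 36.5, 36.1 and 37.4 FPKM in *w1118* (log2 change 0.19, adjusted p = 0.0327, past the threshold in 7 of 13 alternatives).

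Among the large-subunit genes that fell, the change was largest for *mRpL41* (2R, 15217024 to 15217617), a mitochondria-specific protein. It had 11.4, 12.4 and 11.0 FPKM in mutants, against 17.6, 16.4 and 17.2 FPKM in *w1118*. The groups were well apart, with the mutant mean at 0.680 of the *w1118* mean (log2 change -0.52, SE 0.06, limma adjusted p = 0.000362). The gene lies 67315 bases from *Mettl16*, so linkage to the mutated site and the allele itself cannot be told apart for it. *mRpL34*, a small basic protein named after bacterial L34, had 14.3, 13.3 and 12.6 FPKM in mutants, against 20.2, 17.0 and 18.3 FPKM in *w1118* (log2 change -0.44, adjusted p = 0.00245). It lies 949239 bases from *Mettl16*. The only other *mRp* gene within 1 megabase of the site on either side, *mRpS16* at 974264 bases, had overlapping groups (log2 change 0.12, adjusted p = 0.178).

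*mRpL51*, a mitochondria-specific protein, had 19.03, 18.6 and 18.1 FPKM in mutants, against 25.6, 23.5 and 25.8 FPKM in *w1118* (log2 change -0.41, limma adjusted p = 0.000811). The replicates agreed closely in both genotypes and the groups did not meet. It shares 3 bases with *PIG-U* on the opposite strand, which was higher in mutants (log2 change 0.19, adjusted p = 0.0446). *mRpL32*, whose bacterial counterpart is L32, had 15.0, 14.9 and 14.1 FPKM in mutants, against 18.5, 18.97 and 16.6 FPKM in *w1118* (log2 change -0.28, adjusted p = 0.00946). Its last 28 bases overlap *CG1750*, a gene of the opposite strand, which was higher in mutants (log2 change 0.32, adjusted p = 0.0349). *mRpL55*, a mitochondria-specific protein, had 18.7, 21.9 and 23.5 FPKM in mutants, against 25.1, 24.6 and 27.1 FPKM in *w1118* (log2 change -0.25, adjusted p = 0.0421, past the threshold in 7 of 14 alternatives). Here the highest mutant and lowest *w1118* library were only about 1 FPKM apart.

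Of the 26 small-subunit genes 4 rose and 4 fell (30.8%, against 49.6% of all genes tested). *mRpS6* (3L, 4364550 to 4365243) showed the largest fall of all *mRp* genes. Its bacterial counterpart S6 binds ribosomal RNA of the platform together with S18. It had 11.2, 12.6 and 10.9 FPKM in mutants, against 18.8, 18.5 and 20.1 FPKM in *w1118*. No mutant library came near the *w1118* range, and the mutant mean was 0.602 of the *w1118* mean (log2 change -0.69, SE 0.07, limma adjusted p = 0.000156). *mRpS18B*, 1 of 3 genes named after S18, moved the other way, with 11.5, 11.3 and 10.9 FPKM in mutants, against 9.51, 9.40 and 7.48 FPKM in *w1118* (log2 change 0.32, adjusted p = 0.0189, past the threshold in 11 of 13 alternatives, with adjusted p of 0.00852 to 0.0548). The call was lost without mutant replicate 1 (0.0548) and without mutant replicate 2 (0.0519). The other two genes of that name did not pass the test: *mRpS18A* had a log2 change of -0.0046 (SE 0.08) and *mRpS18C* of 0.17 (SE 0.09, adjusted p = 0.148).

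*mRpS33*, a mitochondria-specific protein, had 27.3, 21.4 and 21.5 FPKM in mutants, against 36.2, 28.7 and 34.6 FPKM in *w1118* (log2 change -0.49, SE 0.12, limma adjusted p = 0.00946). Replicates of both genotypes spread more than in most *mRp* genes, and the nearest libraries of the groups had 27.3 FPKM in mutants and 28.7 FPKM in *w1118*. *mRpS31*, also mitochondria-specific, had 8.87, 8.74 and 9.64 FPKM in mutants, against 11.6, 10.9 and 10.7 FPKM in *w1118* (log2 change -0.26, adjusted p = 0.0113). It shares 48 bases with *mib1* on the opposite strand, which was higher in mutants (log2 change 0.25, adjusted p = 0.0257). *mRpS17*, counterpart of a bacterial protein that binds early in assembly, had 22.2, 23.9 and 22.9 FPKM in mutants, against 28.7, 26.3 and 25.7 FPKM in *w1118* (log2 change -0.22, adjusted p = 0.0204, past the threshold in 9 of 13 alternatives). In each of *mRpS33*, *mRpS31* and *mRpS17* the mutant libraries lay below all *w1118* libraries.

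The remaining rises in the small subunit were slight. *mRpS28*, counted here as mitochondria-specific by its number alone, had 12.3, 15.6 and 13.3 FPKM in mutants, against 11.8, 11.3 and 10.6 FPKM in *w1118*. Its log2 change was 0.26 (limma adjusted p = 0.0430, past the threshold in 6 of 13 alternatives). *mRpS5*, counterpart of the bacterial S5 at the entry of the message, had 42.1, 44.1 and 44.7 FPKM in mutants, against 37.0, 39.7 and 34.7 FPKM in *w1118* (log2 change 0.23, adjusted p = 0.0177, past the threshold in 11 of 14 alternatives). *mRpS26*, a mitochondria-specific protein, had 13.1, 14.0 and 12.3 FPKM in mutants, against 11.0, 11.4 and 11.0 FPKM in *w1118* (log2 change 0.22, adjusted p = 0.01997, past the threshold in 12 of 14 alternatives). The mutant libraries of all 3 genes lay above those of *w1118*, by less than 1 FPKM for *mRpS28* and *mRpS26*.

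**Figure D2:**
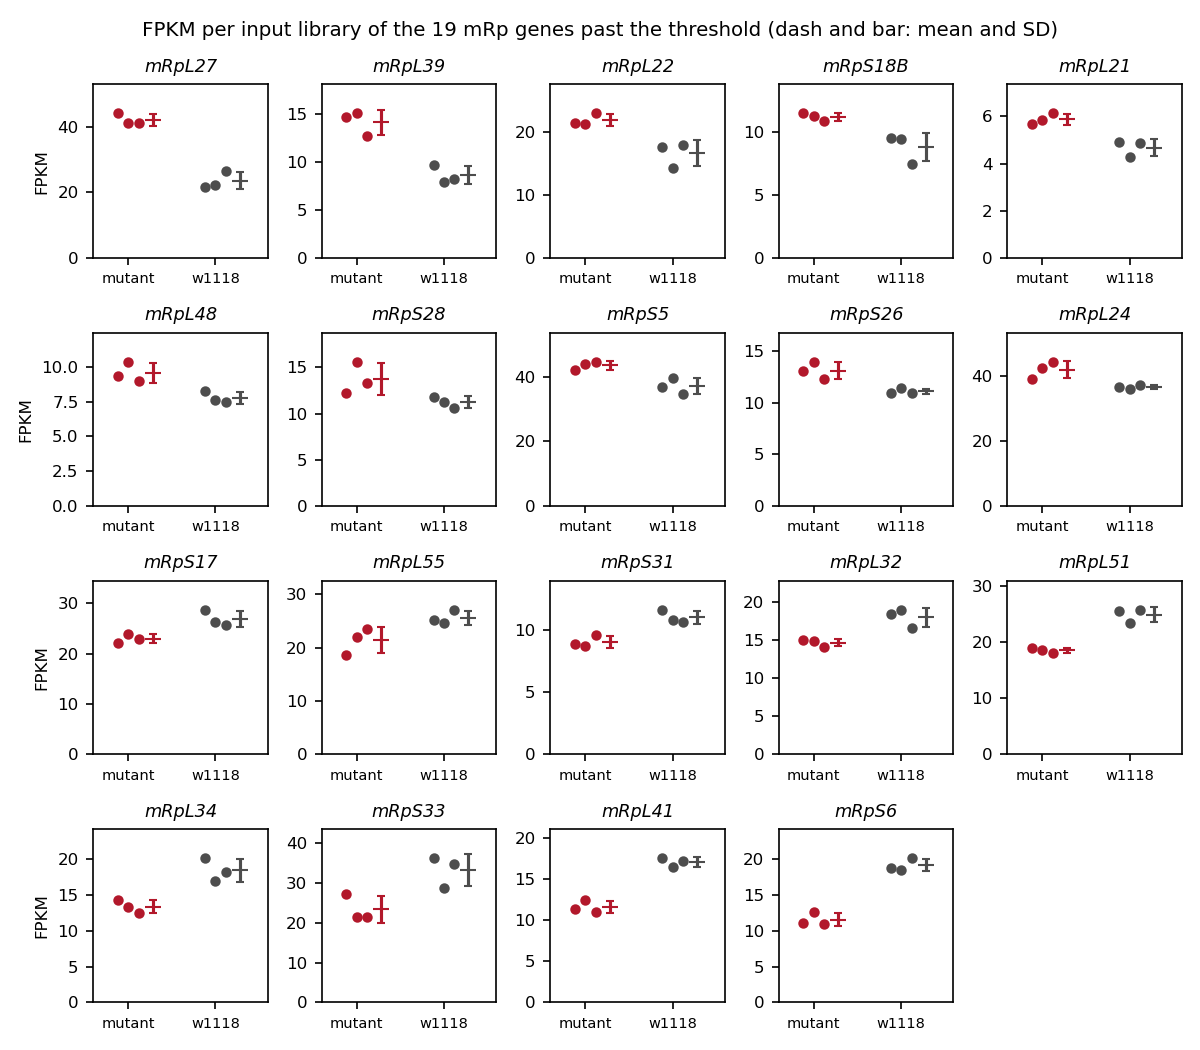
FPKM of the 19 *mRp* genes past the threshold in each input library, *Mettl16* mutants in red on the left and *w1118* in grey on the right, ordered from the largest rise to the largest fall; dashes and bars give mean and SD of 3 libraries, and each axis starts at 0. The 2 groups do not overlap in any panel, and the widest gaps are those of *mRpL27* (1.79-fold), *mRpL39* (1.64-fold) and *mRpS6* (0.602-fold).

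Many *mRp* genes lie close to other genes. By the coordinates of the table, 43 of 73 overlap at least 1 other gene, in 47 pairs of which 44 are on opposite strands, with a median overlap of 55 bases. Among the called genes 10 of 19 overlap a gene, all on the opposite strand. The libraries were made strand-specific with dUTP, but whether the counting used strand is not given in the sources used here, so the values of these genes are less certain. Of the genes with an overlap 10 of 43 were called (23.3%), and of those without 9 of 30 (30.0%), against 49.6% of all genes tested. The shares of all genes with and without an overlap were not computed. Values of 3 genes that overlap a gene of their own strand are also uncertain. *mRpL53* has the same start and end as *CG33155*, *mRpL13* lies within *CG10602*, and *mRpS14* shares 30 bases with *CG32533*. *mRpL53* also lies inside *AGO1*, a gene of the opposite strand. None of these 3 *mRp* genes was called.

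Summed over genes, the 2 subunits stayed near the *w1118* level in FPKM as deposited. The 47 *mRpL* genes summed to 859, 906 and 869 FPKM in mutants, against 841, 844 and 866 FPKM in *w1118*, and the 26 *mRpS* genes to 508, 522 and 511 FPKM in mutants, against 529, 521 and 516 FPKM in *w1118*. Both sums overlapped between genotypes. All genes listed summed to 455217 to 470859 FPKM in mutants and 484438 to 487546 FPKM in *w1118*. Scaling to these totals would raise the mutant sums relative to *w1118*, and it was not done here. The ratio of the *mRpL* to the *mRpS* sum was 1.69, 1.73 and 1.70 in mutants and 1.59, 1.62 and 1.68 in *w1118*, without overlap. Left without *mRpL27*, the ratios were 1.603, 1.66 and 1.62 in mutants and 1.55, 1.58 and 1.63 in *w1118* and did overlap, so the separation rested on that gene. Since each *mRp* gene is counted with its own weight in these sums, they describe the RNA pool and not the number of ribosomes.

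The genes were also grouped by the number in their name alone. The bacterial group held *mRpL* numbers up to 36 and *mRpS* numbers up to 21 (42 genes), and the mitochondria-specific group held higher numbers (31 genes). The descent of each protein was not checked, so a gene with a higher number may still be a counterpart of a bacterial protein. Of the bacterial group 6 rose and 4 fell (23.8%), and of the mitochondria-specific group 4 rose and 5 fell (29.0%). Both shares were below the 49.6% of all genes tested. The median log2 change was 0.06 in the bacterial and 0.00 in the mitochondria-specific group, both close to the 0.01 of all genes tested. The bacterial group summed to 876, 913 and 888 FPKM in mutants, against 863, 860 and 859 FPKM in *w1118*, and these ranges did not overlap. Without *mRpL27* they did, at 832, 872 and 847 FPKM in mutants and 841, 838 and 832 FPKM in *w1118*. The mitochondria-specific group summed to 491, 515 and 492 FPKM in mutants, against 508, 505 and 524 FPKM in *w1118*, with overlap. Sums of the name groups are also FPKM as deposited, not scaled to the total of the library.

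**Figure D3:**
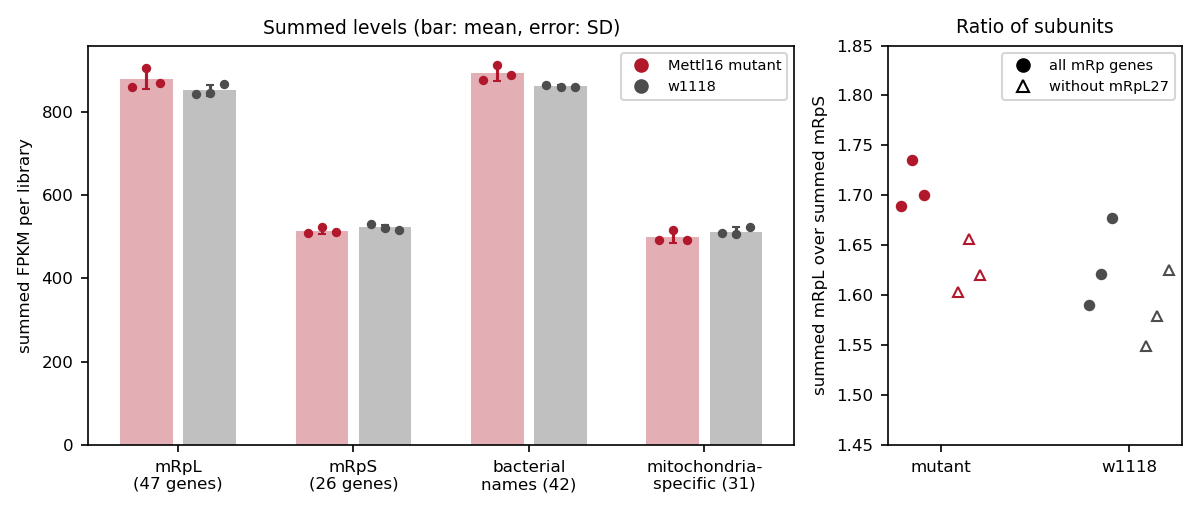
Left, summed FPKM of *mRp* genes per input library by subunit and by name group, *Mettl16* mutants in red left of *w1118* in grey; points are libraries, bars means and error bars SD of 3. Right, the ratio of the *mRpL* to the *mRpS* sum in each library on an axis that does not start at 0, with all genes (filled; 1.69 to 1.73 in mutants, 1.59 to 1.68 in *w1118*) and without *mRpL27* (open; 1.603 to 1.66 in mutants, 1.55 to 1.63 in *w1118*).

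The *mRp* genes are spread over all large chromosome arms, and *Mettl16* lies on 2R. On chromosome 2, 9 of 24 *mRp* genes were called (37.5%), against 52.9% of all genes tested there, and on 3L, 3R and X 10 of 49 (20.4%), against 47.5%. By arm, the calls were 5 of 12 on 2L (background 53.6%), 4 of 12 on 2R (52.3%), 6 of 17 on 3L (50.8%), 3 of 21 on 3R (48.3%) and 1 of 11 on X (42.2%). The 3 calls on 3R were all lower, and *mRpL22* was the only call on X. The share of *mRp* genes called was below that of all genes on every arm, and no test was made of these shares.

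The rest of the mitochondrial expression system was read in the same fit. Of the mitoribosomal proteins whose names fall outside the mRp pattern, *bonsai*, the gene of mitochondrial S15, had 23.9, 24.9 and 24.0 FPKM in mutants, against 20.7, 22.2 and 21.4 FPKM in *w1118*, without overlap (log2 change 0.17, limma adjusted p = 0.0284, past the threshold in 7 of 13 alternatives, with adjusted p of 0.00611 to 0.11). *tko*, the gene of mitochondrial S12 and of the bang-sensitive mutant *technical knockout*, had 8.99, 8.92 and 9.77 FPKM in mutants, against 10.4, 9.42 and 9.98 FPKM in *w1118*, with overlap (log2 change -0.10, adjusted p = 0.247). The other two of the 4 matched genes of this list, *CRIF* (log2 change -0.15) and *CG4679* (-0.07), did not pass the test.

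Of 14 mitochondrial translation factors 2 rose and 4 fell (42.9%, against 49.6% of all genes tested). *mEFTu2*, an elongation factor Tu that brings transfer RNAs to the ribosome, had 29.6, 31.9 and 30.6 FPKM in mutants, against 41.0, 37.4 and 39.9 FPKM in *w1118* (log2 change -0.35, limma adjusted p = 0.00167). *mEFTs*, the exchange factor of elongation factor Tu, had 69.7, 73.8 and 74.1 FPKM in mutants, against 92.7, 84.4 and 88.5 FPKM in *w1118* (log2 change -0.28, adjusted p = 0.00435). Both lay below all *w1118* libraries. The initiation factor *mIF2* also fell (log2 change -0.30, adjusted p = 0.0147), and *CG1750*, described above beside *mRpL32*, rose. Of 19 mitochondrial tRNA synthetases 6 rose and 3 fell (47.4%, against the same 49.6%). *TrpRS-m* (81.4 ± 2.25 FPKM in mutants, 111 ± 4.67 FPKM in *w1118*, SD, n = 3 each), *CysRS-m* (log2 change -0.48) and *ValRS-m* (-0.53) fell, and *LeuRS-m* rose (0.34, adjusted p = 0.00220).

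Over all genes tested, 49.6% passed the limma test at an adjusted p under 0.05 (22.9% higher and 26.7% lower). None of 16 genes of mitochondrial transcription and RNA processing passed it. Of 5 genes of mitochondrial DNA replication 1 did, *mtSSB*, the single-stranded DNA binding protein (log2 change 0.43, adjusted p = 0.00779). In the first of these lists 0 genes had an unadjusted p under 0.05, and its highest levels were those of *scu* (log2 change 0.04) and *mtTFB1* (-0.09). From the mitochondrial genome, 11 of 15 messages and ribosomal RNAs were tested and 2 rose, *mt:Cyt-b* (3413 ± 280 FPKM in mutants, 2625 ± 292 FPKM in *w1118*, SD, n = 3 each, limma adjusted p = 0.0150) and *mt:ND5* (log2 change 0.41, adjusted p = 0.0230). The mitochondrial chaperones and proteases fell in 8 of 13 cases and rose in none, led by *Hsp60C* (log2 change -1.10), *Hsp60B* (-1.05), *Hsp60D* (-0.87) and the protease *YME1L* (-0.48). Spermatid markers, given above, moved in the same direction as these chaperones, and their part in the fall was not tested.

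The genes of oxidative phosphorylation and of the cytosolic ribosome were read beside the *mRp* genes, and no difference between the groups was tested. Of 81 nuclear genes of oxidative phosphorylation, selected by name, 33 fell and 2 rose (43.2%, against 49.6% of all genes tested), with a median log2 change of -0.15. Of these, 19 have names ending in L, a split made after the values were seen, and 16 of the 19 fell, with a median of -0.55, against 17 of the other 62. In those 62 genes 29.03% were called and the median size of the change was 0.12, against 26.03% and 0.10 for the *mRp* genes. *ATPsynGL* (log2 change -1.15), *COX5BL* (-0.96) and *SdhBL* (-0.94) were among the 19 genes with names ending in L. *ND-B8*, a complex I subunit among the other 62, rose most of the 81 (log2 change 2.63, limma adjusted p = 1.41e-05). It had 42.1, 44.2 and 45.4 FPKM in mutants, against 5.14, 5.52 and 8.53 FPKM in *w1118*. Of 92 cytosolic ribosomal protein genes and paralogs 58 rose and 8 fell, with a median of 0.20. *RpL13* had 314, 317 and 323 FPKM in mutants, against 236, 237 and 244 FPKM in *w1118*, while the paralogs *RpL10Aa*, *RpS5b* and *RpS15Ab* fell (log2 changes -0.69, -0.95 and -0.41). For the *mRp* genes the counts were 10 higher and 9 lower, with a median of 0.03.

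**Figure D4:**
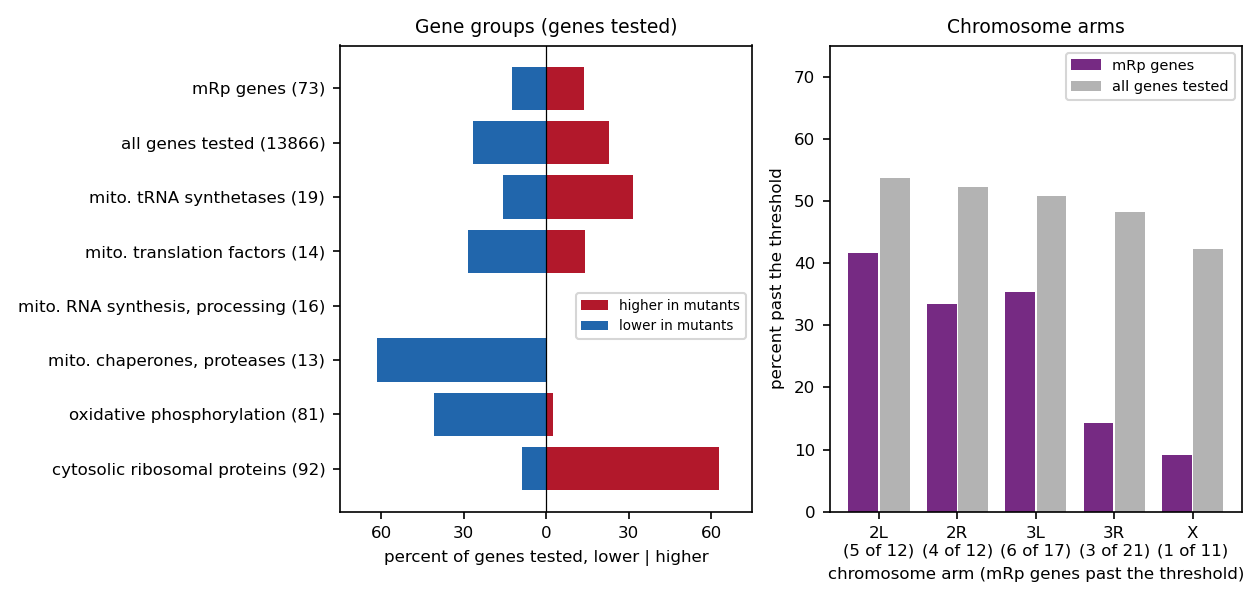
Left, the percentage of genes past the threshold (limma adjusted p under 0.05), higher in mutants to the right and lower to the left, for the *mRp* genes, all genes tested and other gene groups, with the number of genes tested in brackets. Right, the percentage past the threshold on each chromosome arm for *mRp* genes (purple) and all genes tested (grey); the purple bar is below the grey one on each arm.

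Most *mRp* genes have 1 annotated transcript. The isoform table held 96 isoforms of the 73 genes, 55 of which had 1 isoform and 18 had 2 or more. Isoform shares, each the FPKM of an isoform over the sum of its gene, were tested for 39 isoforms of these 18 genes. None was called by limma on arcsine square-root shares (adjusted p under 0.05 together with a shift of more than 0.05 in share), against 4.04% of all isoforms tested. At an unadjusted limma p under 0.05 there were 6 of these 39 isoforms, against 3335 of 18896 over all genes. The share was thus not above the background. The 6 belong to 4 genes, *mRpL48*, *mRpL27*, *mRpL42* and *mRpL23*, which are described here after their values were seen. In *mRpL48* and in *mRpL42* the 2 isoforms have complementary shares and the same p, so they are not separate results.

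The largest change was in *mRpL48*, where the isoform FBtr0077882 took 22.9%, 30.9% and 29.7% in mutants, against 9.22%, 20.4% and 13.5% in *w1118*. The groups did not overlap, but the limma adjusted p was 0.176. *mRpL48* shares 164 bases with *frtz*, a gene of the opposite strand. Whether these bases are the ones that set the isoforms apart was not checked. In *mRpL27*, the gene that rose most, all 3 isoforms were higher in mutants. FBtr0335135 had 14.7, 16.4 and 16.2 FPKM in mutants, against 5.64, 7.39 and 7.40 FPKM in *w1118*. FBtr0345633 had 15.4, 13.3 and 16.3 FPKM in mutants, against 5.94, 6.74 and 8.91 FPKM in *w1118*. FBtr0077451, the most abundant, had 38.1, 32.1 and 29.1 FPKM in mutants, against 23.4, 20.5 and 26.02 FPKM in *w1118*. By these estimates, every mutant library lay above every *w1118* library for each isoform. The isoforms overlap in position, and the FPKM of single isoforms was not tested. The share of FBtr0077451 was 51.7% in mutants and 62.5% in *w1118* (limma adjusted p = 0.223).

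In *mRpL42* the isoform FBtr0088403 took 10.5%, 5.53% and 12.7% in mutants, against 3.00%, 3.22% and 4.16% in *w1118* (limma adjusted p = 0.209). In *mRpL23* the main isoform FBtr0072900 took 100%, 98.4% and 98.2% in mutants, against 94.8%, 91.6% and 94.1% in *w1118* (adjusted p = 0.140, the smallest among the *mRp* genes). Neither pair of groups overlapped. The isoform FBtr0111147 of *mRpS5* stood apart in 1 library: it had 16.6 FPKM in *w1118* replicate 3 and at most 0.0515 FPKM in all others, while the isoform FBtr0111146 had 20.99 FPKM there and 41.4 to 49.8 FPKM elsewhere. The gene value of *mRpS5* in that library, 34.7 FPKM, was the lowest of its 6, and without it the gene was not past the threshold (adjusted p = 0.062, against 0.00454 to 0.0605 in the other alternatives).

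Most *mRp* genes carried an m6A peak in *Mettl16* mutants. The authors called peaks with exomePeak as enrichment of IP over input on the 3 replicates together, so a peak has 1 value and no replicate spread, and the values give no comparison with *w1118*, whose peaks were not analysed here. The list held 66 peaks in 61 of 73 *mRp* genes (83.6%), against 81.8% of all genes tested and 90.4% of genes that averaged 5 FPKM or more. All but 1 of the 66 had a false discovery rate under 0.05 in the authors' list. The 12 genes without a peak listed, among them *mRpL14*, *mRpL4* and *mRpS16*, had mean levels of 10.8 to 25.2 FPKM, inside the range of the others.

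By annotation, almost all peaks were 3' UTR peaks. A peak carries 1 annotation, and some peaks span much of a short gene. That of *mRpL34* ran from 16098978 to 16099337, in a gene listed from 16098948 to 16099337. Of the 66, 62 were annotated to the 3' UTR (93.9%), 3 to coding exons and 1 to a 5' UTR, while over all genes tested 63.5% were in the 3' UTR, 9.77% in coding exons and 20.01% in the 5' UTR. Oxidative phosphorylation genes (95.3% in the 3' UTR) and cytosolic ribosomal protein genes (90.7%) had shares close to that of the *mRp* genes. The downstream edge of the peak reached the annotated end of the gene in 47 of the 62 (75.8%), against 62.7% over all genes tested, and lay within 100 bases of it in 11 more. The farthest, in *mRpL21*, lay 803 bases from the gene end.

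Enrichment was moderate. The median log2 enrichment of the 66 peaks was 1.86, with quartiles of 1.497 and 2.44, against a median of 2.26 over all genes tested, 1.77 for oxidative phosphorylation genes and 1.44 for cytosolic ribosomal protein genes. The highest value belonged to *mRpL35*, counterpart of bacterial L35 (3R, 22023966 to 22024312, log2 enrichment 3.19). *mRpS6*, the gene with the largest fall, was next (3L, 4365004 to 4365243, 3.12), followed by the mitochondria-specific *mRpS34* (3L, 16348457 to 16348782, 2.98). *mRpS5* (3L, 24542767 to 24543534) had 2.96, but with a false discovery rate of 0.151 it is the peak that missed 0.05. *mRpL36* (3L, 8124584 to 8124758, 2.88) and *mRpL22* (X, 16784827 to 16785092, 2.85) completed the 6 highest. All 6 were annotated to the 3' UTR. The genome build is not given in the sources used here beyond an annotation version, so the coordinates are those of the files.

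Several genes had 2 peaks. In *mRpL27* both were annotated to the 3' UTR, with log2 enrichments of 2.15 near the gene end and 1.37 farther upstream. *mRpS7* had a peak in the 3' UTR (2.53) and one in a coding exon (1.202), as had *mRpS5* (2.96 and 0.28, the lowest value of all). *mRpL54*, a mitochondria-specific protein, had the only 5' UTR peak of the group (0.93) beside one in the 3' UTR (0.99). The 2 peaks of *mRpL53* shared their end and had starts only 2 bases apart, with the same value of 2.02, so nearly the same bases count as 2 of the 66 peaks. The peak of *mRpS9* (3R, 7889277 to 7901441) has its start and end on either side of introns.

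**Figure D5:**
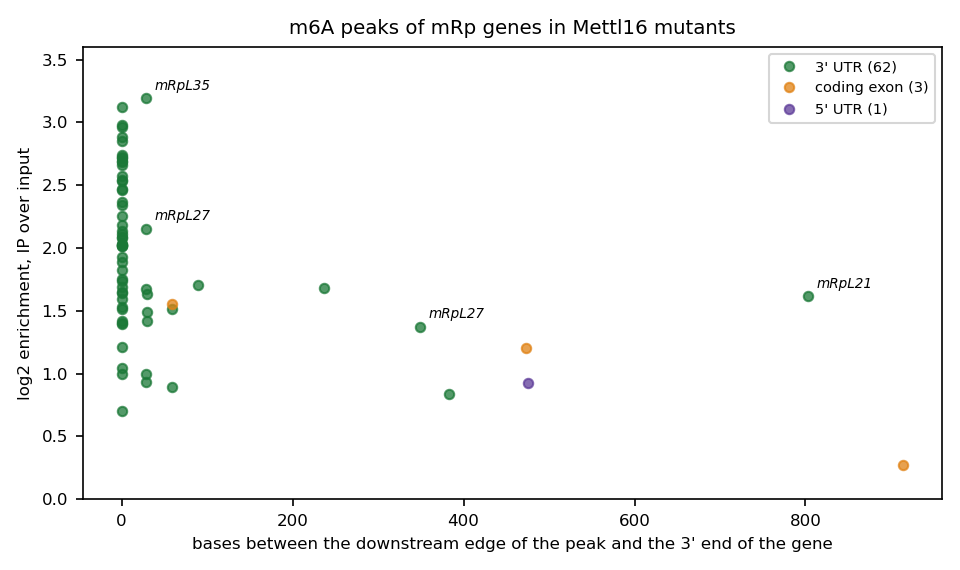
Log2 enrichment of IP over input for the 66 m6A peaks of *mRp* genes in *Mettl16* mutants against the number of bases between the downstream edge of the peak and the 3' end of the gene; each point is 1 peak from the authors' call on 3 replicates together, coloured by annotation. Most 3' UTR peaks stand at 0 bases, and the coding and 5' UTR peaks have values of 1.55 or less.

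All 19 *mRp* genes called in the expression test carried a peak, so 19 of 61 genes with a peak and 0 of 12 without one were called by limma (0 of the 12 had an unadjusted p under 0.05 either). Over all genes tested the share called was 50.1% with a peak and 47.2% without. The strongest peak of each gene that rose had a log2 enrichment between 0.895 (*mRpS26*) and 2.96 (*mRpS5*), and that of each gene that fell between 1.49 (*mRpS17*) and 3.12 (*mRpS6*). The ranges overlapped, and no test of peak strength was made. Since m6A was not compared between genotypes here, these values say where the mark was found in mutants and not whether it changed.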

How the data were processed

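Poly(A) RNA of whole adult males was fragmented and sequenced as input and, after capture with an m6A antibody, as IP. Reads were cleaned (fastp, FastQC) and mapped (HISAT2) by the authors, whose StringTie run on the inputs gave the deposited FPKM per gene and isoform. Isoform coverage, also deposited, is the mean number of reads over a base and is not corrected for sequencing depth. Peaks come from exomePeak, run by the authors on the 3 replicates of a genotype jointly, with a deposited log2 enrichment and an adjusted p-value (false discovery rate) for each. The deposited columns of differential genes and differential peaks hold the authors' own fold changes and p-values between genotypes and were not used, nor were 9 further columns of the gene table and 18 of the isoform table. The genome build and tool versions are not given in the sources used here.

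The 6 input libraries were compared, 3 of each genotype as labelled. In R 4.3.3, limma 3.58.1 (trend, two-sided) was applied to log2(FPKM + 1) of genes averaging 0.5 FPKM or more, with Benjamini-Hochberg adjustment over all genes tested and a threshold of 0.05. A fold change on this scale understates the change of low genes. Isoform shares were tested likewise on the arcsine square root, for genes of at least 1 FPKM with at least 2 isoforms and shares of 0.01 to 0.99. Nothing in the labels says that the libraries of a genotype came from separate cultures, so p-values measure the spread between these preparations. An exact rank test of 3 against 3 libraries could not go below p = 0.1. The fits were tested on simulated data with known changes. Peaks count their start from 0 in the files and are given here from 1. Joins used pandas 2.3.3 and NumPy 2.4.6 under Python 3.11.15, and plots used matplotlib 3.10.9.

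The members and the 15 gene lists, with 194 of 228 entries matched by symbol, were chosen with earlier results of these data known, and the counts of the lists are descriptions. Genes named with values were the called *mRp* genes, the 4 highest and 4 lowest by mean FPKM, the 6 strongest peaks and genes with 2 peaks, and up to 4 called genes of each list by smallest adjusted p. Genes near the threshold, beside *Mettl16*, overlapping a member or with an unadjusted isoform p under 0.05 were added after their values were seen. Alternatives were other pseudocounts, filters and scalings, a replicate block, leaving out each library, genes off chromosome 2, other thresholds for isoforms and peaks, and, added after seeing the data, summed isoform FPKM.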

Additional observations from a re-analysis of the deposited data

How the results depend on the processing

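The 19 *mRp* genes called were 10 higher and 9 lower. Another pseudocount and summed isoform FPKM, the latter chosen after seeing the data, gave the same 19 genes. Scaling by summed FPKM without the 10 highest genes gave 19 higher and 7 lower (73.1% of calls higher, against 52.6%), and the fit on genes off chromosome 2, which holds 49 *mRp* genes, gave 5 higher and 5 lower. Without a filter there were 9 higher and 8 lower, from 5 FPKM on 12 and 9, and with equal medians 11 and 9. Leaving out a library gave 4 to 12 higher and 7 to 10 lower, the extremes of the higher calls being without mutant replicate 2 (4) and without mutant replicate 1 (12). *mRpL28*, at a log2 change of 0.078, ranged over -0.046 to 0.181 when a library was left out and changed direction without *w1118* replicate 1. Replicate numbers did not pair the libraries, with correlations of deviations of -0.036, -0.061 and -0.027 between same-numbered libraries, and a replicate block gave 8 higher and 8 lower. No isoform of a *mRp* gene was called under any alternative run. Of the 66 peaks 65 had a false discovery rate under 0.05 and 59 a log2 enrichment of at least 1. Counts of the other gene lists stayed within 1.5 times under both alternatives run for them. The promoter motif search and its alternative were not run, since no sequence was used here. The depth of 5.32 to 6.48 gigabases put at least 38.6 reads per base on each *mRp* gene.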
